A study of Bubalus bubalis with 12 samples.

Results

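The expression of the glycolysis enzyme genes HK1, HK2, GPI, PFKP, ALDOA, GAPDH, PGK1, ENO1, LDHA and LDHB was examined in the ruminal wall of 12 dairy buffaloes. The genes were chosen by symbol, as rows of the deposited table that carry exactly these 10 names. A row was found for 9 of them among 34037 genes, and 8 of the 9 had enough reads to be among the 12642 genes tested. No row bears the name LDHA, which was not analysed here. HK2 was too low for the main test. It was tested only through its ratio to HK1, and in limma when the filter was loosened or left out.

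Italian Mediterranean dairy buffaloes (Bubalus bubalis) of the control group received a total mixed ration (TMR, n = 6). Those of the treated group received a TMR with fresh ryegrass at 30% of the diet (n = 6). The treated ration also held less corn silage, alfalfa hay and concentrate, more corn meal, and no soybean meal, calcium carbonate or vitamin supplement. Its share of forage was larger and its fat content higher. Both diets were matched for nitrogen and energy, all animals were adult milking cows of a single commercial dairy, and the wall was taken at slaughter. Each animal gave 1 stranded total RNA library, so that n counts animals. Values are FPKM, the fragments of a gene scaled to its length and to all counted fragments of the animal. Levels are set side by side on this scale between genes and between animals. It does not correct for differences in RNA composition between animals, and the gene lengths behind it are not given.

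Glycolysis breaks glucose down to pyruvate in the cytosol and yields ATP and NADH. Hexokinase, phosphofructokinase and pyruvate kinase catalyse the irreversible steps, while the remaining enzymes work near equilibrium in both directions. The lactate dehydrogenase tetramer interconverts pyruvate and lactate and is built from A and B subunits, and the product of LDHB is the subunit of tissues that oxidise lactate. The ruminal wall is lined by a stratified squamous epithelium that absorbs and metabolises short-chain fatty acids from the fermentation of feed, and little glucose reaches it from the rumen itself.

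The squamous epithelium was clearly present in every library, since the summed level of 12 epithelial markers (KRT5, KRT15, TP63 and others) was between 3789 and 6158 FPKM in the control group and between 3861 and 7016 in the treated group. Counted fragments per animal ranged from 10531541 to 12948372. In 3 libraries the profile stood apart from the rest. Control replicate 6 held the highest or the lowest value of the 12 animals in 33.2% of the tested genes, treated replicate 6 in 38.9% and treated replicate 1 in 22.9%, compared with 9.13% to 15.1% in the other animals. Diet comparisons of the members and markers that rest on these 3 animals are given with and without them.

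The enzymes of the set spanned a wide range of levels. GAPDH, which oxidises glyceraldehyde 3-phosphate, was the highest, with a mean of 422 FPKM over the 12 animals, above 98.6% of the tested genes. It was followed by the aldolase ALDOA with 199, the phosphoglycerate kinase PGK1 with 130.2, the enolase ENO1 with 114, LDHB with 114 and the glucose-6-phosphate isomerase GPI with 100.1. Each of these 6 genes lay above at least 95.3% of the tested genes. The entry enzymes were lower. HK1 had a mean of 20.6 FPKM, above 76.5% of the tested genes, PFKP had 1.97, above 18.9%, and HK2 had 0.142.

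Not every neighbour in this order was separated. GAPDH exceeded ALDOA, GPI exceeded HK1, HK1 exceeded PFKP and PFKP exceeded HK2 in all 12 animals. ALDOA exceeded PGK1 in 10 of the 12 animals, with control replicate 6 and treated replicate 6 as the exceptions. PGK1 exceeded ENO1 in 8 animals, ENO1 exceeded LDHB in 7 and LDHB exceeded GPI in 7, so that the order of these 4 genes differed from animal to animal.

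**Figure D1:**
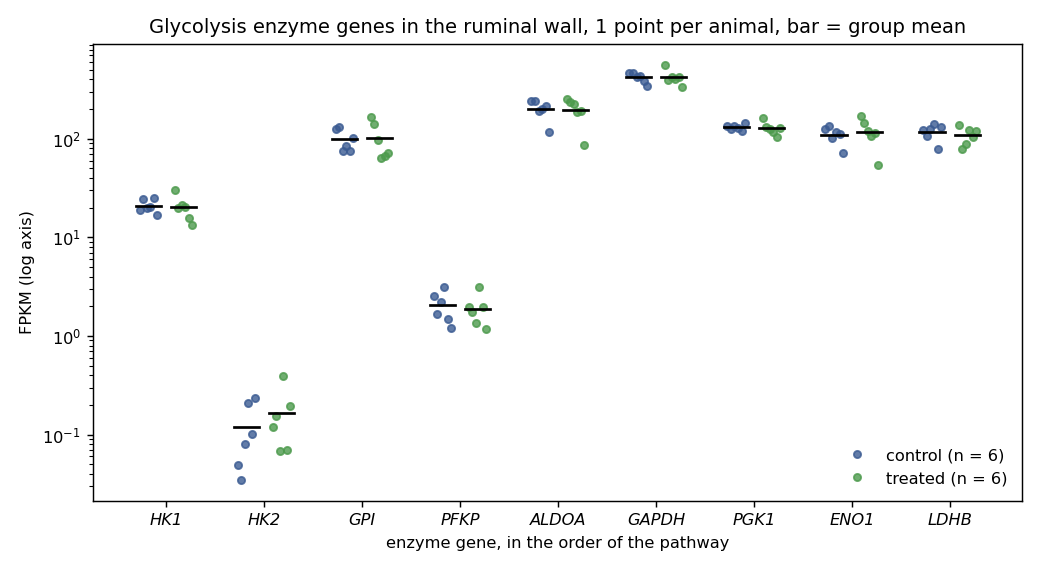
FPKM of the 9 enzyme genes with a row (logarithmic vertical axis) in the order of the pathway, 1 point per animal, control in blue and treated in green, with a bar at each group mean. The groups overlap for every gene, and HK2 and PFKP lie far below the other enzymes, with means of 0.142 and 1.97 FPKM.

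Hexokinase phosphorylates glucose and so keeps it in the cell. HK1 (gene identifier 102406489), the isozyme of most tissues, had a lowest, median and highest value of 17.0, 20.1 and 25.05 FPKM in the control group and of 13.3, 20.2 and 30.2 in the treated group. Both the highest and the lowest animal belonged to the treated group, replicates 1 and 6, and the group medians were nearly equal. The mean of the controls was 21.0 ± 3.19 (SD, n = 6) and that of the treated animals 20.1 ± 5.81 (SD, n = 6), a log2 fold change of -0.10 (SE 0.18), and the two-sided exact permutation test over the animals gave p = 0.641.

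HK2 (102414046), the insulin- and hypoxia-responsive hexokinase of muscle and fat, was close to the limit of detection. Its reads numbered 3, 2, 5, 13, 6 and 12 in control replicates 1 to 6 and 7, 9, 4, 23, 4 and 12 in treated replicates 1 to 6. Only control replicate 1 and control replicate 2 were at or under 3 reads, which was taken as the floor, and the level reached 0.393 FPKM in treated replicate 4. With so few reads, counting error alone is wide. The 13 reads of control replicate 4, for example, have an exact Poisson interval of 6.92 to 22.2 reads, and intervals of this kind cover counting error only.

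HK1 was therefore the dominant hexokinase. It made up 91.6% to 96.5% of the summed FPKM of the hexokinase genes in each animal, against 0.134% to 1.76% for HK2, and HK3 and HKDC1 had means of 0.619 and 0.401 FPKM. The ratio of HK1 to HK2 had a median of 249 in the control group (73 to 713) and of 178 in the treated group (52 to 309.6). The mean log2 ratio of the controls was 7.79 ± 1.23 (SD, n = 6) and that of the treated animals 7.15 ± 1.06 (SD, n = 6), a difference of -0.65 with an exact permutation p = 0.344. Without both animals numbered 6 it was -0.76 (exact permutation p = 0.31), and without these and treated replicate 1 it was -0.91 (exact permutation p = 0.254). The highest ratio, 713 in control replicate 2, rests on 2 reads of HK2 and has a counting interval of 197 to 5890.

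GPI (102403908) turns glucose 6-phosphate into fructose 6-phosphate, where glycolysis and the pentose phosphate pathway meet. Its lowest, median and highest values were 74.4, 92.2 and 132 FPKM in the control group and 64.5, 85.1 and 165 in the treated group. The 4 highest animals were replicates 1 and 2 of each group, and the treated values spread on both sides of the control range. Controls had a mean of 98.8 ± 25.4 (SD, n = 6) and treated animals one of 101.4 ± 42.6 (SD, n = 6), with a log2 fold change of -0.02 (SE 0.25, exact permutation p = 0.924).

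Phosphofructokinase commits sugar to glycolysis, and PFKP (102400527) encodes its platelet-type subunit. The values of PFKP were low, with a lowest, median and highest value of 1.201, 1.94 and 3.16 FPKM in the control group and of 1.16, 1.85 and 3.14 in the treated group, from 35 to 111 reads per animal. Replicate 4 was the highest and replicate 6 the lowest in each group. PFKP had a log2 fold change of -0.12 (SE 0.28, exact permutation p = 0.69). PFKP made up only 2.63% to 6.94% of the summed FPKM of the phosphofructokinase subunits, and the liver-type subunit PFKL, at 19.1 to 52.7 FPKM, made up 88.0% to 92.6%. PFKL exceeded PFKP in all 12 animals, with a median ratio of 20.9 (12.7 to 35.2).

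ALDOA (102400602), which splits fructose 1,6-bisphosphate into 2 triose phosphates, was at 116, 208 and 243 FPKM (lowest, median, highest) in the control group and at 87.3, 209 and 251 in the treated group. The medians nearly coincided. In both groups replicate 6 was far below the other animals, which did not fall under 189 FPKM. ALDOA had a log2 fold change of -0.07 (SE 0.25, exact permutation p = 0.764). ALDOA held 98.6% to 99.4% of the aldolase FPKM.

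**Figure D2:**
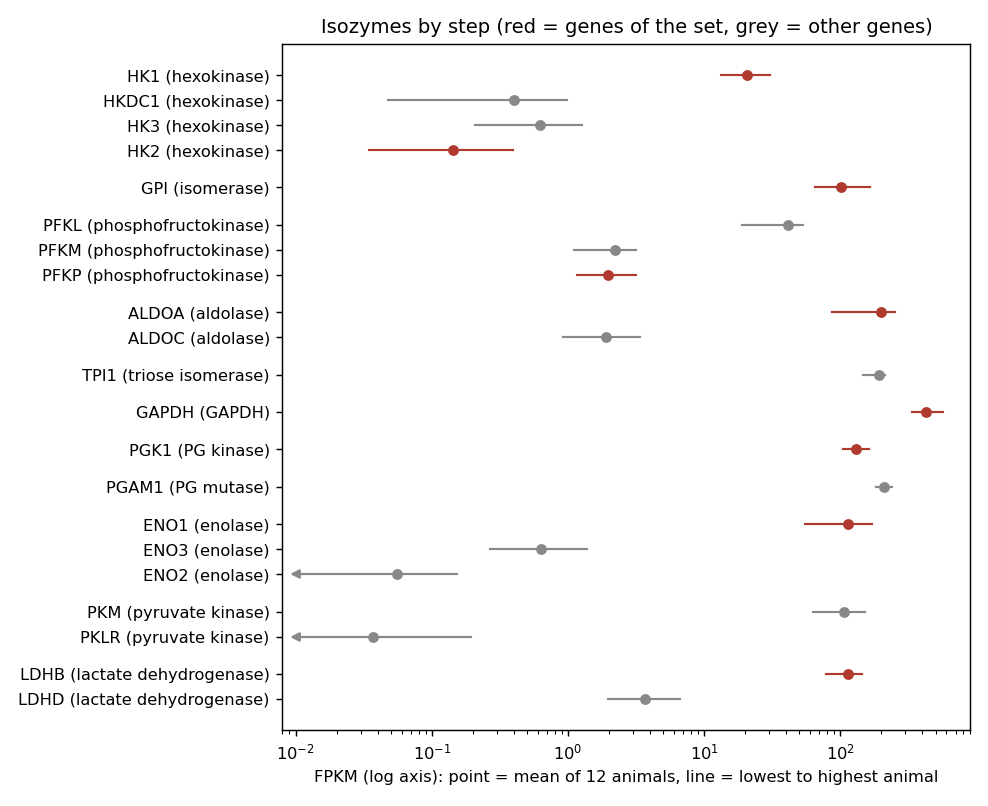
Mean FPKM over the 12 animals (points) with the lowest and highest animal (lines, logarithmic axis) for the genes of each step, genes of the set in red and other genes in grey, with an arrow where the lowest animal is at 0. HK1, ALDOA and ENO1 lie above the other isozymes of their steps, but PFKP lies below PFKL and HK2 below HK1. LDHB is shown beside LDHD only, as LDHA has no row.

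GAPDH (102404028) is often used as a reference gene. Its lowest, median and highest values were 340.3, 429 and 468 FPKM in the control group and 333, 411 and 564 in the treated group. A single animal, treated replicate 1, lay above all controls, and replicate 6 was the lowest in both groups. The mean of the controls was 419.7 ± 48.2 (SD, n = 6) and that of the treated animals 424 ± 76.3 (SD, n = 6), a log2 fold change of 0.00 (SE 0.13, exact permutation p = 0.974). The highest and lowest of the 12 animals differed by a factor of 1.70.

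PGK1 (102392495), the first ATP-forming enzyme of the chain, was the steadiest member. Its lowest, median and highest values were 119.9, 131 and 146 FPKM in the control group and 104, 128 and 163 in the treated group. Here replicate 6 was not low, and it was the highest animal of the control group. The SD within the groups was 0.17 on the log2 scale, and only 7.58% of the tested genes had a smaller one. The log2 fold change of PGK1 was -0.04 (SE 0.11, exact permutation p = 0.686).

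ENO1 (102400524), which forms phosphoenolpyruvate, had the widest relative range of the tested members, 3.14-fold between the lowest and the highest animal. Its lowest, median and highest values were 72.4, 114 and 135 FPKM in the control group and 54.6, 117 and 172 in the treated group. Replicate 6 was again the lowest of each group. ENO1 had a log2 fold change of 0.05 (SE 0.24, exact permutation p = 0.866). ENO1 held 98.7% to 99.8% of the enolase FPKM, and the muscle isozyme ENO3 at most 1.26%.

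LDHB (102408470) had a lowest, median and highest value of 79.6, 125 and 143 FPKM in the control group and of 78.1, 112 and 139.6 in the treated group. Replicate 6 was the lowest in neither group, and the low animals were treated replicate 2 and control replicate 5. The mean of the controls was 118 ± 22.5 (SD, n = 6) and that of the treated animals 109 ± 23.1 (SD, n = 6), a log2 fold change of -0.13 (SE 0.17) with an exact permutation p = 0.494. This was the largest difference of the 8 members and still smaller than its standard error. LDHD, the mitochondrial dehydrogenase of D-lactate, had a mean of 3.66 FPKM, and LDHB exceeded it by a median of 30.9-fold (13.4 to 67.1) over the 12 animals.

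The comparison of the diets asked whether green feed changed the expression of these genes. None of the 8 tested members differed between the groups in limma at a nominal p-value below 0.05, the threshold used in the study, against 1.24% of all tested genes (157 of 12642). None was nominally higher in the treated group, against 0.791% of all tested genes, and none nominally lower, against 0.451%. The balance of the directions over all genes was not stable, with 271 higher and 291 lower with no filter, 80 and 98 without treated replicate 4, and 95 and 99 without treated replicate 5. With Benjamini-Hochberg adjustment over all tested genes, limma called 0 genes of any kind at 0.05, and the adjusted p-value of each member was 1.00. The smallest nominal limma p-value of a member was 0.47, that of LDHB. No member had groups that did not overlap, against 0.0554% of all tested genes. In bulk tissue, fewer cells of a type and less RNA per cell cannot be told apart.

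Of the 8 log2 fold changes, 6 were below 0 and 2 above, with a median of -0.05, beside a median of 0.0053 over all tested genes. These signs were not stable, since the sign of each member except LDHB turned when 1 animal or another was left out, and those of GAPDH and ENO1 also turned below 0 with the epithelial or the muscle and fibroblast score as a covariate. The 95% intervals show how wide the estimates were. As a fold of treated over control, the lower bounds lay between 0.605 (PFKP) and 0.826 (PGK1) and the upper bounds between 1.15 (PGK1) and 1.47 (ENO1). The median SD within the groups, on the log2 scale, was 0.39 for the 8 members and 0.36 for all tested genes, and 4 members lay under the latter.

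**Figure D3:**
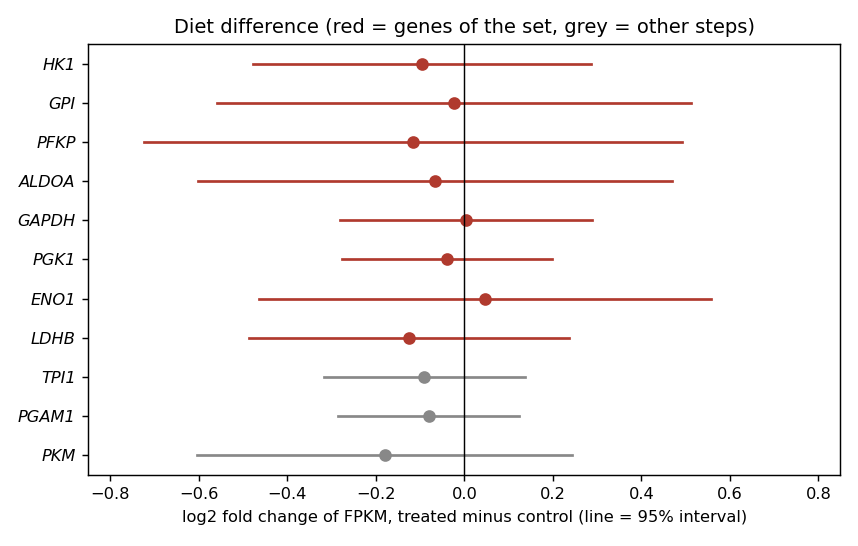
Log2 fold change of FPKM, treated minus control, for the 8 tested members (red) and for TPI1, PGAM1 and PKM (grey), with 95% intervals from limma (6 animals per group). Each interval spans 0, and the narrowest among the members is that of PGK1, from -0.28 to 0.20.

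Several members shared their highest or lowest animal. Treated replicate 1 was the highest of the 12 animals for 6 of the 9 genes (HK1, GPI, ALDOA, GAPDH, PGK1 and ENO1), while 12.8% of the tested genes had their highest value there. Treated replicate 6 was the lowest for 5 (HK1, PFKP, ALDOA, GAPDH and ENO1), against 24.3% of the tested genes. For PFKP, ALDOA, GAPDH and ENO1, both animals numbered 6 were the lowest pair of the 12, which was the case for 19.4% of the tested genes. The summed FPKM of the 9 genes ranged from 811 in treated replicate 6 to 1487 in treated replicate 1, and they held 0.13% to 0.246% of the counted fragments. These counts describe the same libraries, and the members are not independent of each other.

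Markers of cell types moved with some of these animals. The epithelial sum was the lowest in each group in replicate 6, at 3789 and 3861 FPKM, and the highest in treated replicate 1, at 7016. Of the 12 epithelial markers, 5 (KRT5, PKP1, PKP3, JUP and TRIM29) also had both animals numbered 6 as the lowest pair, whereas DSG3 had them as the highest. The rest were mixed. TP63 and DSP were the lowest of the 12 animals in treated replicate 6, but EPCAM and PERP were the highest there. In control replicate 6, KRT15 was the lowest of the controls and CDH1 the highest. KRT5 was at 451 and 498 FPKM in control and treated replicate 6, against at least 1179 in the other animals. The sum of 10 fibroblast markers was the lowest of all in treated replicate 1, at 22.7 FPKM, and was 228 and 188.5 in control replicate 6 and treated replicate 6. With the epithelial score as a covariate, the SE of the diet difference was 0.11 for ALDOA and 0.10 for ENO1. Without it, the SE was 0.25 and 0.24. The SE of PGK1 and LDHB was nearly the same with the score (0.11 and 0.16) as without it (0.11 and 0.17). The part of the markers in the levels of the members was not itself tested.

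The same lists were also compared between the diets. The fibroblast sum was 52.6 to 301 FPKM in the control group and 22.7 to 188.5 in the treated group, and all 10 fibroblast markers had a log2 fold change below 0, none with a nominal limma p-value below 0.05. The smooth muscle sum was 28.6 to 50.6 and 15.4 to 40.4 FPKM, and all 6 tested markers had a log2 fold change below 0, with a median of -0.75. It was only -0.03 for SMTN, which entered the sum at 3.47 to 18.8 FPKM. Without treated replicate 6, or without both animals numbered 6, 5 of the 6 were below 0. With all 12 animals, 1 of the 6 (DES) passed the nominal limma threshold, against 0.451% of all tested genes called lower. Its log2 fold change was -1.04 (limma p = 0.0271, exact permutation p = 0.0519, adjusted p 1.00). DES also passed the nominal threshold without treated replicate 6 (-1.11, limma p = 0.0281, exact permutation p = 0.0628). DES did not pass it without control replicate 6 (-0.90, exact permutation p = 0.102), without treated replicate 1 (-0.77, exact p = 0.104), without both animals numbered 6 (-0.97, exact p = 0.111) or without these and treated replicate 1 (-0.65, exact p = 0.222). In the last setting the median of the 6 was -0.36 and that of the fibroblast markers -0.39, with 9 of 10 below 0. Without treated replicate 6, the fibroblast markers COL1A2 and PDGFRB passed the nominal threshold, and without both animals numbered 6, PDGFRB did. No epithelial, endothelial or leukocyte marker had a nominal p-value below 0.05 with all animals or in these settings. None of the skeletal muscle and red blood cell markers reached the test, and their sums stayed at or below 2.16 and 0.722 FPKM. With the epithelial score in the model, 0 of 8 members were called, the smallest nominal limma p-value being 0.177 (ALDOA). With the muscle and fibroblast score in the model, 0 of 8 members were called, the smallest nominal limma p-value being 0.065 (HK1), and the largest difference was that of GPI, at -0.36.

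**Figure D4:**
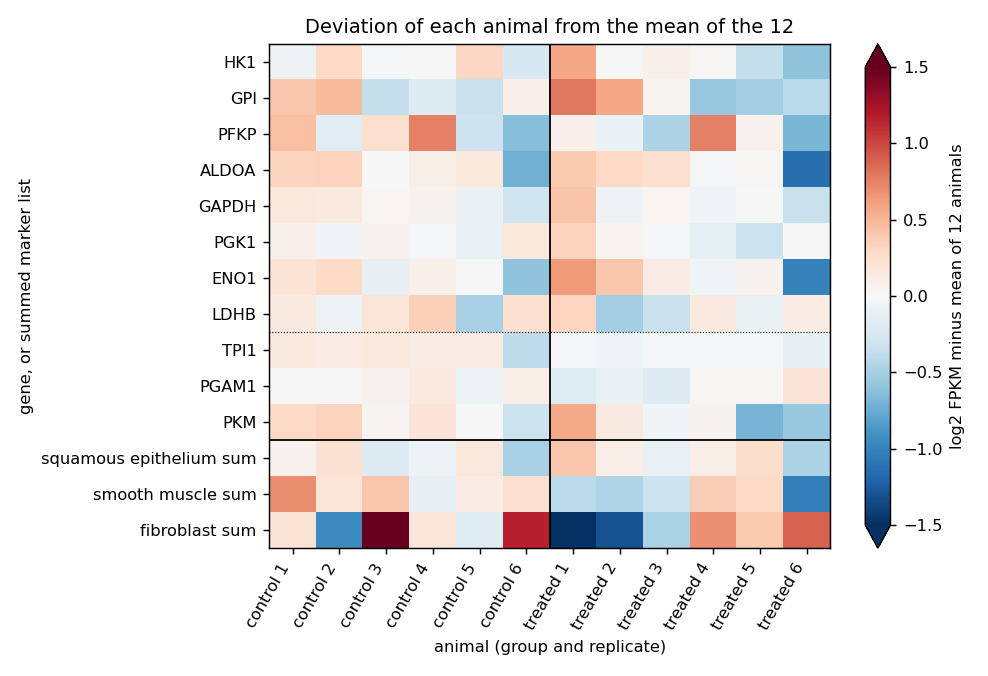
Deviation of each animal (columns, control left of the line and treated right of it) from the mean of the 12 on the log2 FPKM scale, for the tested members, for TPI1, PGAM1 and PKM, and for the sums of 3 marker lists. Treated replicate 1 is red for most members. Replicate 6 of both groups is blue for ALDOA and ENO1, but it is the lowest of neither group for PGK1 and LDHB. Colours end at the limits of the scale.

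Without both animals numbered 6, the log2 fold changes were 0.0024 for ALDOA, 0.01 for GAPDH, 0.14 for ENO1 and -0.13 for PFKP. Without these and treated replicate 1, they were -0.05, -0.08, 0.03 and -0.13, respectively, and -0.17 for HK1, -0.11 for GPI, -0.10 for PGK1 and -0.23 for LDHB. In neither case did a member have a nominal limma p-value below 0.05. Both choices were made after seeing the data.

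The 3 enzymes that complete the chain to pyruvate were at levels similar to those of its lower members. The mean of the triose phosphate isomerase TPI1 was 192 FPKM, that of the phosphoglycerate mutase PGAM1 209 and that of the pyruvate kinase PKM 105. With all 12 animals and no covariate, none of them passed the nominal limma threshold, with log2 fold changes of -0.09 (SE 0.11), -0.08 (SE 0.10) and -0.18 (SE 0.20), respectively. PKM passed it with the muscle and fibroblast score as a covariate (-0.40). TPI1 passed it without both animals numbered 6 and without these and treated replicate 1 (-0.16 in each case). After adjustment over all genes, limma called neither of them in these settings. Summed over isozymes, the hexokinase step (21.7 FPKM) and the phosphofructokinase step (45.1) were the lowest of the chain, the isomerase between them was at 100.1, and the later steps lay between 105 at pyruvate kinase and 422 at GAPDH.

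The surrounding pathways were also without a call. Of 80 further genes in 7 lists, 78 had a row, 62 were tested, and none of them rose or fell at a nominal limma p-value below 0.05, with 30 log2 fold changes above 0 and 32 below. The smallest nominal p-value was 0.12. Among the other glycolytic isozymes and steps, 0 of 10 were called, and their most expressed gene was PGAM1. Of the bifunctional enzymes that set the level of the phosphofructokinase activator fructose 2,6-bisphosphate, 0 of 4 were called, and the most expressed was PFKFB3 at 6.96 FPKM.

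Of the genes that bring pyruvate into mitochondria, oxidise it or regulate that oxidation, 0 of 13 were called. The pyruvate dehydrogenase subunit PDHA1 was the most expressed, at 117 ± 6.62 (SD, n = 6) FPKM in the control and 120.4 ± 7.12 (SD, n = 6) in the treated group. In the pentose phosphate pathway, 0 of 7 were called, with the transaldolase TALDO1 the highest at 254 FPKM. Among the genes of glycogen metabolism, 0 of 9 were called, and PGM2 led with 49.3 FPKM. Of the hypoxia factors and targets other than the glycolytic enzymes, 0 of 15 were called, and NDRG1 was the most expressed, with 149.9 ± 25.7 (SD, n = 6) FPKM for controls and 174 ± 52.2 (SD, n = 6) for treated animals.

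The gluconeogenic enzymes, which bypass the irreversible steps of glycolysis, had 0 of 4 tested genes called. The most expressed was FBP2, the muscle-type fructose-1,6-bisphosphatase, at 80.6 to 192 FPKM, which exceeded the liver-type FBP1 in all 12 animals by a median of 2.74-fold (1.68 to 3.81). FBP2 opposes phosphofructokinase, and its mean of 126 FPKM lay beside 45.1 for the 3 phosphofructokinase subunits together. PCK1, the cytosolic phosphoenolpyruvate carboxykinase, had 0 reads in all animals. Its isozyme PCK2 had a mean of 30.8 FPKM over the 12 animals (14.7 to 61.4).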

How the data were processed

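Reads were trimmed by the authors with Trimmomatic 0.39, aligned with STAR 2.5.2b to the buffalo genome UOA_WB_1 and counted per gene and strand with featureCounts 2.0.0, leaving out reads of low mapping quality, so that reads shared by near-identical gene copies may be missing. The authors deposited FPKM. The tool and gene lengths behind them are not given in the sources used here. Of 16 value columns, 12 were matched to animals by the labels, and 4 were not used.

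For all 22972 genes above 0, FPKM were multiples of the value of 1 read, whole to within 0.01 read in every animal, from which reads were worked out. The filter was the TMM threshold of the study in at least 1 animal (TMM computed from these reads). Diets were compared by limma 3.58.1 with a variance trend (R 4.3.3) on log2(FPKM + 0.01), adjusted by Benjamini-Hochberg over 12642 genes. Fold changes are on that scale. Two-sided exact permutation tests covered all 924 assignments of the animals, with a smallest possible p-value of 0.00216. P-values set a difference between the groups against the spread between these animals. Scripts used Python 3.11.15, numpy 2.4.6, scipy 1.17.1, pandas 2.3.3 and matplotlib 3.10.9, and the fit was tested on simulated data. No library repeated another, as the chi-square per gene was 18.6 to 136 over the 66 pairs.

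The members and gene lists were chosen with earlier results of these data known. The text names all members, TPI1, PGAM1, PKM, the most expressed gene of each pathway list and list genes with a nominal p-value below 0.05. Other isozymes, TIGAR and marker genes were named after their values were seen. The LDHA to LDHB ratio could not be computed. Alternatives were pseudocounts, filters, scalings, a robust fit, the replicate number as a block, marker scores as covariates and each animal left out. Fits by voom on the reads and without the animals numbered 6, with and without treated replicate 1, were added after seeing the data.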

Additional observations from a re-analysis of the deposited data

Results flagged for a closer look

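In 26 groups of 6 animals (the 9 enzymes with a row, TPI1, PGAM1, PKM and the HK1 to HK2 ratio in each diet), 1 animal stood apart from its group by the test for a single distant value, which chance alone marks in about 1 in 20 groups. TPI1, the triose phosphate isomerase, was at 147 FPKM in control replicate 6, the lowest of the control group, while the other 5 controls lay within 207 to 212 FPKM. The 6 treated animals lay within 175 to 189 FPKM, below those 5. Without control replicate 6, the groups did not overlap, as was the case for 0.166% of the tested genes (21 genes) in that setting. The log2 fold change was then -0.18 (exact permutation p = 0.00216, the smallest that this comparison can give, nominal limma p = 0.036, adjusted p 1.00). With all 12 animals it was -0.09 (exact permutation p = 0.372). This comparison was chosen after the values were seen, and the animal it leaves out decides it.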

How the results depend on the processing

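In limma, no member passed the nominal threshold of 0.05 in any of the 25 alternative settings, and adjusted p-values below 0.05 were absent for all genes in each (smallest 0.156, with no filter). The number of genes that passed the nominal threshold was 157 in the main comparison (1.24% of those tested). It was 562 of 22972 (2.45%) with no filter and 301 of 16450 (1.83%) with at least 0.1 FPKM in 6 animals. With the epithelial score as a covariate it was 284, and with the muscle and fibroblast score 388. Without both animals numbered 6 it was 314, and without these and treated replicate 1 it was 274. The cause of these changes was not tested. Leaving out single animals gave 142 to 325, the highest without treated replicate 6.

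The log2 fold change of GAPDH turned to -0.0019 on the median ratio scale, -0.028 with the epithelial score, -0.11 with the muscle and fibroblast score and -0.080 without treated replicate 1 and both animals numbered 6. That of ENO1 turned to -0.038 and -0.23 with the same scores, that of GPI to 0.067 and that of ALDOA to 0.0024 without both animals numbered 6. With single animals left out, the ranges were -0.22 to 0.15 (ALDOA), -0.077 to 0.25 (ENO1), -0.082 to 0.070 (GAPDH), -0.18 to 0.086 (GPI), -0.22 to 0.015 (HK1), -0.28 to 0.023 (PFKP), -0.11 to 0.021 (PGK1), -0.23 to -0.04 (LDHB) and -0.97 to -0.31 for the log2 ratio of HK1 to HK2. PKM reached a nominal p-value below 0.05 with the muscle and fibroblast score (-0.40), and TPI1 without control replicate 6 (-0.18), without both animals numbered 6 (-0.16) and without these and treated replicate 1 (-0.16).

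The replicate numbers used here are those of the sample descriptions, from 1 to 6 in each group. The sample titles give other numbers to control replicate 6 and to the treated animals, so that the pairs and the block do not join animals with the same number in the titles, and nothing says that a number marks a shared pen or day. Same-numbered animals correlated by -0.01 to 0.42 (mean 0.21, 6 pairs, other pairs -0.04), and 4 of 6 controls correlated best with their own number. With the replicate block, 322 genes and 0 members passed the nominal threshold, and the exact paired p-value of the HK1 to HK2 ratio was 0.156. The alternatives for the LDHA to LDHB ratio were not run, as no row is named LDHA. Depth limits HK2, at 2 to 23 reads per animal.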
